A study of Mus musculus with 6 samples.

Results

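Wrb and its partners in the insertion of tail-anchored proteins were followed in the anterior cingulate cortex of juvenile-treated mice. The genes were picked from the table by symbol, as members of the pathway called GET in yeast and TRC in mammals, and Wrb heads them because its level differed between the groups. The symbols of 6 of the 7 listed genes were in the table. The other gene, Camlg, stood there under the older symbol Caml, and its identifier carries that name in GENCODE M21. All 7 were therefore measured, of 14250 genes in the table, and all 7 passed the filter on low counts. The values that drew attention to Wrb are the same counts and FPKM values given here, so the difference between groups in the members is given as a description, with no p.

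The RNA came from C57BL/6 mice, substrain not given, and each library held polyadenylated RNA of 1 mouse. In the LPS group, 3 mice received lipopolysaccharide, a bacterial endotoxin, at 50 µg per kg into the peritoneum on postnatal day 14. The 3 saline mice were injected with pyrogen-free saline on the same day, and all 6 were sampled on postnatal day 45 after anaesthesia and perfusion, by dissection of the cortex from slices by hand. No allele or transgene is named for either group, and the labels do not say which sex, litter or hour of day the mice came from.

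Tail-anchored proteins carry a single membrane segment at their very end, so they leave the ribosome before that segment can be recognised and must be inserted afterwards. SGTA catches the segment, a complex of BAG6, UBL4A and GET4 hands it to the ATPase ASNA1 (GET3, TRC40), and ASNA1 delivers it to a receptor in the endoplasmic reticulum (ER) made of WRB (GET1) and CAML (GET2). The clients include synaptobrevins and syntaxins of synaptic vesicle release, and in sensory hair cells WRB is known to be needed for normal synapses and for otoferlin.

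Library totals ran from 36168687 to 41270737 counts. The labelled tissue was checked against 9 markers of cortical neurons, all detected, with levels that summed to 4910 to 5450 CPM (counts scaled to library size) in saline libraries and 4970 to 5160 CPM with LPS. Markers of the neighbouring striatum summed to 129 to 133 CPM in saline libraries and 122 to 132 CPM with LPS, and those of meninges to 86.5 to 166 and 103 to 174 CPM. The 9 glial and vessel markers summed to 2410 to 2690 and 2390 to 2920 CPM, and no marker of these 4 lists was called different by edgeR. Markers of choroid plexus and blood were not analysed here. The share of counts in unannotated rows separated the groups, at 2.51% to 2.93% in saline and 1.61% to 2.03% in LPS libraries. Its part in the results was not tested.

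Wrb (ENSMUSG00000023147) lies on chromosome 16 of build GRCm38, at chr16:96145407-96157852 on the plus strand. Its promoter is shown because it stands directly before the transcript on which the comparison turns, and because its sequence holds a feature that few promoters share. The 250 bases before the RefSeq start of the gene (listed there as Get1, GRCm38.p6, chr16:96145150-96145399, plus strand, 5′ to 3′) are given with the copies of an exact repeat in capitals.
Wrb promoter: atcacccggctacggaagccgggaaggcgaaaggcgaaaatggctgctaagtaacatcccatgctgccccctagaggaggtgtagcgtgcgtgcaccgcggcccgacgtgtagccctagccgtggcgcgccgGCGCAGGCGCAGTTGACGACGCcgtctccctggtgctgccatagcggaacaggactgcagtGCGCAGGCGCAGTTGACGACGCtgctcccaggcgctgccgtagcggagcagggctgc

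The repeat is 22 bases long and its copies begin 118 and 57 bases before the start, 61 bases apart. An exact repeat of at least this length, with copies that do not overlap, was present in 310 of 32851 RefSeq promoter windows of 250 bases, or 0.944%. Each copy holds 1 match to TGACG, the core of a cyclic AMP response element, and 2 to GCGCA, which forms an arm of the word bound by the respiratory gene regulator NRF1. A further GCGCA, on the other strand, overlaps the start of the second copy. Matches were counted on both strands. TGACG was in 17.8% of windows and at least 2 times in 3.9%, and GCGCA in 25.6% and at least 5 times in 1.09%. Most of the Wrb matches to these words lie in the repeat copies, so their shares are not separate from that of the repeat. The Wrb window was 67.2% GC, and 13.5% of windows had at least that GC content. Windows were not matched for GC content in these shares. The E-box CACGTG, the word CCAAT and the GC box GGGCGG were not found in the Wrb window and occurred in 6.02%, 33.8% and 32.7% of windows. Among the other members with a RefSeq promoter (Asna1, Get4, Bag6, Ubl4a and Sgta), the longest exact repeat was 6 to 10 bases. Sgta and Get4 have 2 windows each, and 1 Sgta window held GCGCA 6 times and TGACG 2 times, without such a repeat. These matches describe the sequence and say nothing of what binds there.

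Wrb transcripts were about 4 times as abundant in LPS as in saline mice. The deposited counts were 366, 386 and 409 in Saline 1, 2 and 3, and 1868, 1474 and 1456 in LPS 1, 2 and 3. As CPM they were 9.59, 9.64 and 10.8 in saline and 44.5, 36.4 and 39.9 in LPS libraries. Each LPS library held more than 3 times the level of the highest saline library, and the spread within a group was small beside the gap. The means were 9.99 ± 0.657 CPM with saline and 40.3 ± 4.07 CPM with LPS (SD, n = 3 each), a log2 difference of 2.01 (SE 0.0979) and a ratio of 4.03. Only 4 of the 14250 genes had a larger positive log2 difference, and 42 had one of 1 or more. More cells of a type and more RNA per cell, or fewer and less, cannot be told apart in tissue RNA.

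The partner in the receptor, Caml (ENSMUSG00000021501, chr13:55623005-55632411), which receives ASNA1 at the ER together with WRB, had overlapping groups. Its levels were 22.3, 23.6 and 23.6 CPM with saline and 23.1, 22 and 25.4 CPM with LPS. LPS 2 was the lowest and LPS 3 the highest of the 6 libraries, and the log2 difference was 0.02 (SE 0.082).

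**Figure D1:**
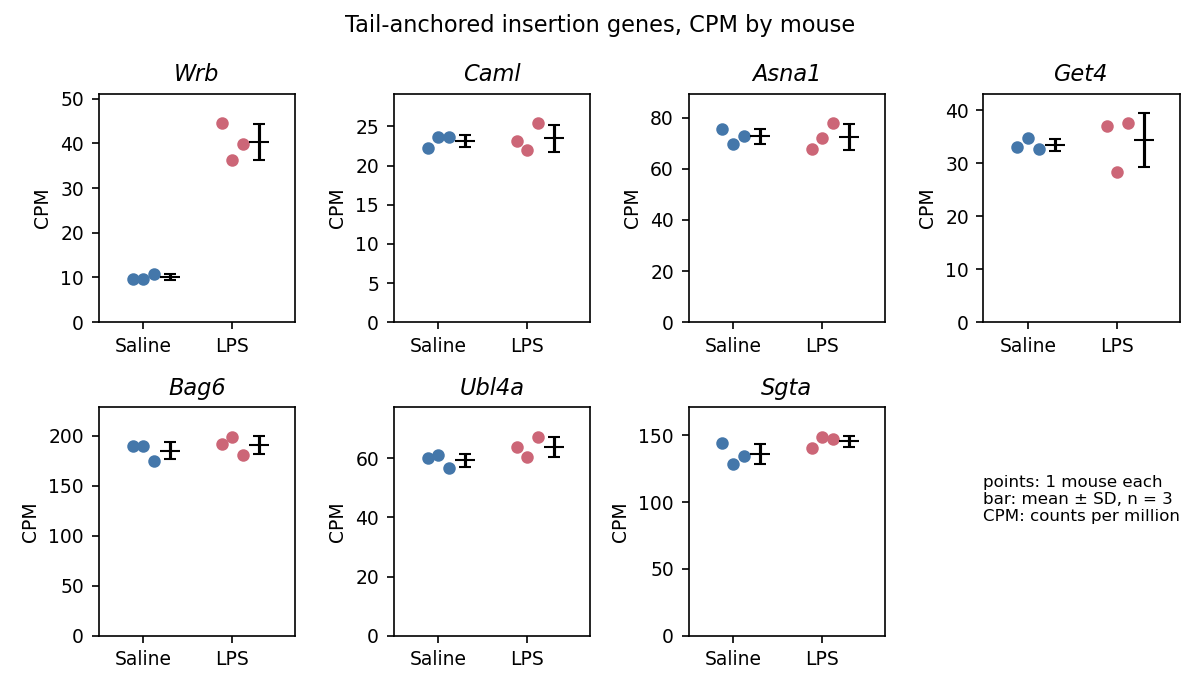
Level of each of the 7 genes in CPM (vertical axes, from 0) in 3 saline and 3 LPS mice, 1 point per mouse, with the mean and SD beside the points. Wrb is at 9.59 to 10.8 CPM with saline and 36.4 to 44.5 CPM with LPS, while the points of the other 6 genes overlap between groups.

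The ratio of the receptor subunit transcripts was set per transcript length with the authors' FPKM (fragment counts scaled to transcript length and depth). Wrb FPKM divided by Caml FPKM was 0.267, 0.248 and 0.268 in Saline 1 to 3 and 1.03, 0.902 and 0.842 in LPS 1 to 3. In saline mice the Wrb transcript was thus well below that of its partner, and in LPS mice they were nearly level. The mean ratio was 0.261 ± 0.0113 in saline and 0.925 ± 0.096 in LPS mice (SD, n = 3 each).

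The targeting ATPase Asna1 (ENSMUSG00000052456, chr8:85017931-85025281, minus strand) carries the client to this receptor. Its levels were 75.7, 69.8 and 72.9 CPM with saline and 67.7, 72.2 and 77.8 CPM with LPS. The groups overlapped fully, and the log2 difference was -0.0050 (SE 0.0672). Per length, the Asna1 level was 13.4 ± 0.656 times that of Wrb in saline and 3.75 ± 0.525 times in LPS mice (ratio of FPKM, SD, n = 3 each).

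The pretargeting complex passes the client from SGTA to ASNA1. Bag6 (ENSMUSG00000024392, chr17:35135178-35147322), the scaffold that also routes failed clients to degradation, had 190, 190 and 175 CPM with saline and 192, 199 and 181 CPM with LPS. Ubl4a (ENSMUSG00000015290, chrX:74365718-74373218, minus strand), which docks SGTA on the complex, had 60.2, 61.0 and 56.8 CPM with saline and 63.9, 60.5 and 67.3 CPM with LPS. Get4 (ENSMUSG00000025858, chr5:139252324-139270051), which docks ASNA1, had 33.1, 34.7 and 32.6 CPM with saline and 37.0, 28.4 and 37.5 CPM with LPS. In each of these 3 genes the groups overlapped. LPS 2 was the lowest of the 6 libraries for Get4, and LPS 1 and LPS 3 the highest, so the SD was 1.08 CPM with saline and 5.1 CPM with LPS. Log2 differences were 0.05 for Bag6 (SE 0.0612), 0.11 for Ubl4a (SE 0.0633) and 0.04 for Get4 (SE 0.106).

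Sgta (ENSMUSG00000004937, chr10:81044075-81060181, minus strand) codes for the cochaperone that first catches the membrane segment. It had 144, 129 and 135 CPM with saline and 141, 149 and 147 CPM with LPS. Saline 1 lay above LPS 1, so the groups overlapped, and the log2 difference was 0.10 (SE 0.06).

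In all, edgeR called 1 of the 7 members, Wrb, where it called 0.288% of all genes in either direction and 0.0982% in the higher direction. That count is the choice of Wrb itself, so nothing is read from it. Groups did not overlap in CPM in 1 of the 7 members, against 13.7% of all genes. The other 6 had log2 differences from -0.0050 to 0.11, of which 5 were positive, with a median of 0.04 beside 0.0014 over all genes.

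Levels of different members were compared per length, as FPKM in saline mice. Sgta stood highest at 66.7 ± 2.27 FPKM (SD, n = 3 here and for the next 6 genes). Bag6 at 58.5 ± 4.82 FPKM and Asna1 at 53.7 ± 1.34 FPKM followed, and their libraries overlapped. Ubl4a had 23.1 ± 0.747 FPKM and Get4 18.8 ± 2.75 FPKM. The receptor subunits came last, Caml at 15.4 ± 0.894 FPKM and Wrb at 4.01 ± 0.23 FPKM. Apart from Bag6 and Asna1, no neighbours in this order shared any part of their range, although the highest Bag6 library (63.7 FPKM) nearly reached the lowest Sgta library (64.1 FPKM).

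In LPS mice the lower end of the order closed up. Wrb was at 16.1, 12.8 and 14.2 FPKM in LPS 1 to 3, Caml at 15.6, 14.2 and 16.8 FPKM, and Get4 at 20.9, 13.0 and 23.5 FPKM. Ranges of these 3 genes overlapped, for Get4 only because of LPS 2. Ubl4a, at 25.1, 22.3 and 25.8 FPKM in LPS 1 to 3, overlapped Get4 but neither Caml nor Wrb. Sgta (73.4 ± 0.796 FPKM), Bag6 (61.8 ± 8.79 FPKM) and Asna1 (53.2 ± 3.58 FPKM, SD, n = 3 each) stayed above them in the same order of means.

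**Figure D2:**
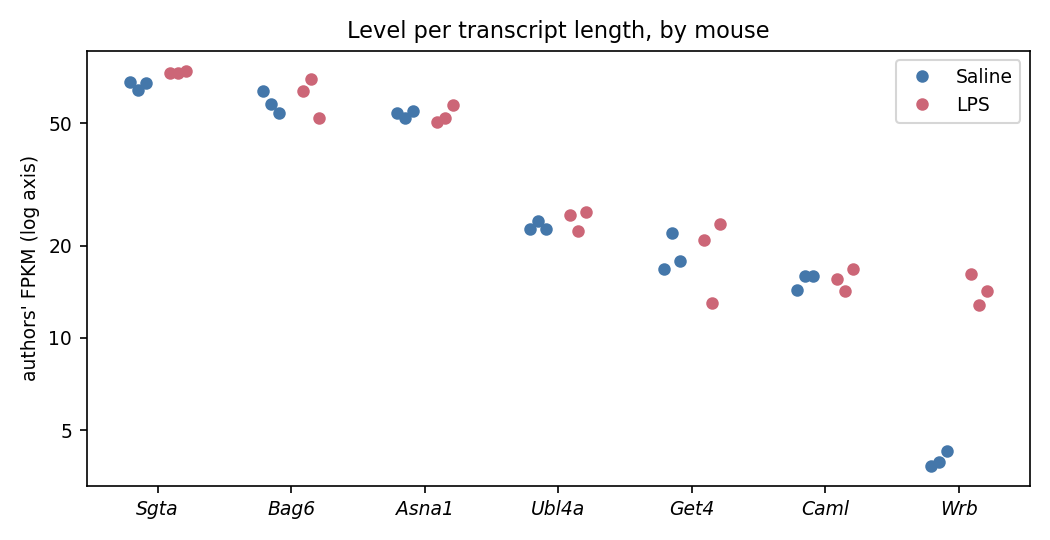
Authors' FPKM of the 7 genes (log axis) in saline and LPS mice, 1 point per mouse, ordered by the saline mean. Wrb is the lowest gene in saline mice (3.83 to 4.27 FPKM) and overlaps Caml in LPS mice (12.8 to 16.1 FPKM for Wrb).

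The FPKM values gave a smaller ratio for Wrb than the counts did, 14.3 ± 1.65 against 4.01 ± 0.23 FPKM (SD, n = 3 each), or 3.58 instead of 4.03. In LPS libraries more counts went into each unit of Wrb FPKM. With the saline mean set to 1 and libraries scaled to the median gene, counts per FPKM were 0.976, 0.995 and 1.03 in Saline 1 to 3 and 1.13, 1.11 and 1.13 in LPS 1 to 3. The groups were apart by 12.3% and did not overlap. Among 13308 genes with at least 50 counts in every library, 1.25% had groups that were apart by over 10% in this measure. How the FPKM were computed is not given in the sources used here, so which transcript length stands behind this shift was not tested.

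GENCODE M21 lists 7 Wrb transcripts, 4 of them coding. Its full-length coding forms with 5 exons are 2495 and 2678 bases long and differ in the first exon, of 172 or 355 bases, while a form of 2415 bases skips an internal exon. An antisense transcript, AC164647.1, shares 505 bases with Wrb exons, 11.6% of them, and was not analysed here. No source says that strand was kept, so its reads cannot be told apart from those of Wrb there. Apart from that overlap, 13 of 4554 words of 50 bases in Wrb transcripts recur in another gene, Gm8128.

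Get4 and Bag6 varied in counts per FPKM within groups. Get4 ran from 0.885 in LPS 3 to 1.18 in LPS 2, and Bag6 from 0.881 in LPS 2 to 1.09 in LPS 3, with both groups overlapping. The order of these genes by FPKM is less certain for that reason. Caml and Asna1 were steady, from 0.998 to 1.00. Sgta was 3.19% lower and Ubl4a 1.44% higher in LPS libraries, each with groups apart, where 10.3% of genes had groups apart. Ubl4a shares 258 exon bases, 8.21% of its own, with Slc10a3 on the same strand, so its reads are uncertain there. Of 2476 words of 50 bases in Get4 transcripts, 177 (7.15%) recur in Gm43110, so some Get4 reads are uncertain too.

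**Figure D3:**
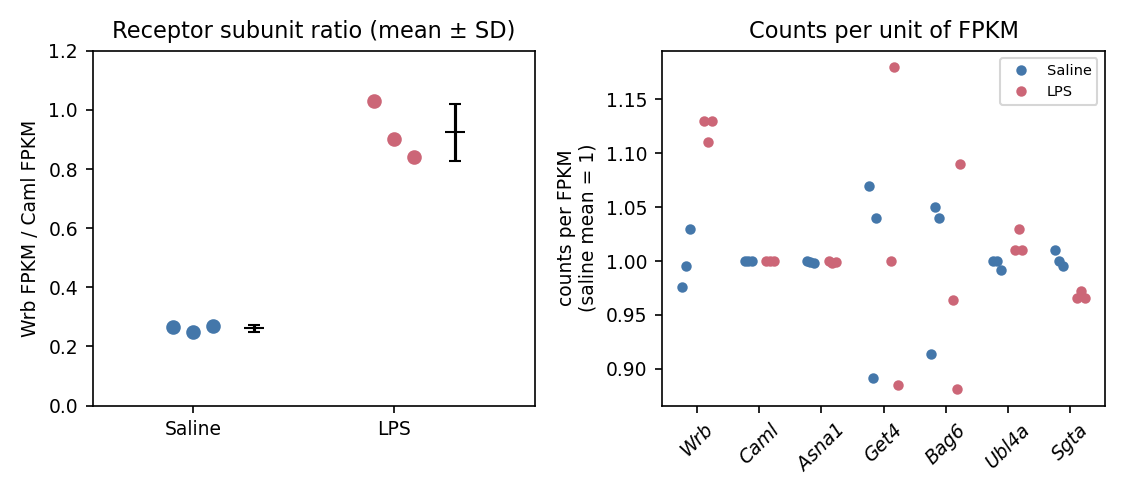
Left, Wrb FPKM divided by Caml FPKM in each mouse, with the mean and SD beside the points (0.261 in saline, 0.925 in LPS mice). Right, counts per unit of FPKM relative to the saline mean for each gene and mouse, where Wrb is at 0.976 to 1.03 in saline and 1.11 to 1.13 in LPS mice and Get4 and Bag6 scatter in both groups.

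Other routes into the ER membrane and their clients were examined with 9 lists, which held 152 measured genes besides the members. By edgeR, 0 of the 152 were called in either direction, against 0.288% of all genes, and 4 had an unadjusted p under 0.05, 2.63% beside 7.17% of all genes. DESeq2 and limma-voom also called 0, where they called 0.982% and 0.239% of all genes. The median log2 difference over the 152 was 0.01, and their quartiles were -0.06 and 0.06, beside -0.08 and 0.09 for all genes. Only 2 of the 152 differed by more than 0.25 on the log2 scale, 1.32%, beside 14.3% of all genes. Groups did not overlap in 14 of the 152, or 9.21%, beside 13.7% of all genes. The 152 were not matched with all genes for expression level, so these shares and quartiles are not read as a weaker response.

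The ER membrane protein complex, an insertase for tail-anchored and multipass proteins of weaker hydrophobicity, had 10 measured subunits. Their log2 differences ran from -0.09 (Mmgt1, SE 0.0803) to 0.10, with a median of 0.04. Emc3, its core insertase subunit, belongs with WRB to the Oxa1 family of insertases. Emc3 was at 59.0 ± 0.429 CPM with saline and 61.7 ± 1.77 CPM with LPS (SD, n = 3 each, edgeR adjusted p = 0.832), without overlap between the groups. The other relatives, Tmco1 of the multipass translocon (log2 -0.02) and the mitochondrial Oxa1l (0.03) and Cox18 (-0.0078), did not pass either. None of these relatives showed a difference of the size seen in Wrb. In the higher direction only 4 of all 14250 genes exceeded Wrb, so nothing about the family is read from that.

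Genes that act on clients before or instead of insertion did not pass. Rnf126, the ubiquitin ligase that works with BAG6, had 71.5 ± 3.26 CPM with saline and 78.8 ± 7.13 CPM with LPS (log2 0.14, edgeR adjusted p = 0.756). The cochaperone gene Dnajb1 had a log2 difference of -0.21 (SE 0.118, edgeR adjusted p = 0.779). The median of the 17 genes of this list was -0.04.

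A list of 11 genes, with a median of -0.03, covered the signal recognition particle and its receptor, which target proteins during translation, and Tmem208 of the SND route, another way into the ER. Srp54c had 68.5 ± 1.82 CPM with saline and 57.9 ± 4.91 CPM with LPS (log2 -0.24, SE 0.0706, edgeR adjusted p = 0.42). Each LPS library lay below each saline library for Srp54c. Its copies Srp54a (-0.56, SE 0.882) and Srp54b (-0.03, SE 0.145) are closely related in sequence, so reads can be shared among the 3, and were named after their values were seen. Srp19 had a log2 difference of 0.14 (SE 0.0847).

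In the Sec61 channel and its helpers the median over 12 genes was 0.04. The neuronal channel gene Sec61a2 (0.15, SE 0.0977) and the small subunit Sec61g (-0.21, SE 0.135) had the smallest p of the list. Median and extremes of the 7 multipass translocon genes were 0.04, -0.05 (Nomo1, SE 0.0598) and 0.09 (Wdr83os, SE 0.0798).

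Transcripts of the clients themselves did not pass. In a list of 44 genes, mainly of tail-anchored proteins routed to the ER, none was called, and the median log2 difference was 0.03. Before adjustment, 2 had p under 0.05 (edgeR). Vamp1, a synaptobrevin, had 70.3 ± 6.07 CPM with saline and 61.6 ± 5.18 CPM with LPS (log2 -0.19, edgeR adjusted p = 0.696; SD, n = 3 each). Vamp2, the main synaptobrevin of the forebrain, had a log2 difference of 0.06 and Otof, the gene of otoferlin, one of 0.11. Vamp2 and Otof were named after their values were seen.

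A list of 25 genes, mainly of tail-anchored proteins of mitochondria and peroxisomes, also held the peroxisomal targeting factors Pex19 and Pex3, and had a median of -0.01. Rhot2, a mitochondrial transport GTPase gene, had 59.2 ± 2.78 CPM with saline and 66.8 ± 6.71 CPM with LPS (log2 0.17, edgeR adjusted p = 0.705). Bak1, a pore former of apoptosis, had 14.2 ± 1.48 and 16.5 ± 0.17 CPM (log2 0.22, edgeR adjusted p = 0.705; SD, n = 3 each). In both, each LPS library lay above each saline library. Groups did not overlap in 3 of the 25 genes, 2 higher and 1 lower, or 12% beside 13.7% of all genes.

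The ER stress list had 26 measured genes and a median of -0.02. Ppp1r15a, which restores translation after stress, had 17.1 ± 0.759 CPM with saline and 13.9 ± 1.8 CPM with LPS (log2 -0.31, edgeR adjusted p = 0.571). Its LPS libraries all lay below its saline libraries. Herpud1, an ER degradation gene, had a log2 difference of -0.13 (SE 0.0718). The ER chaperone BiP (Hspa5) had means of 170 CPM with saline and 156 CPM with LPS, and Ddit3 14.8 and 15 CPM, both named after their values were seen.

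**Figure D4:**
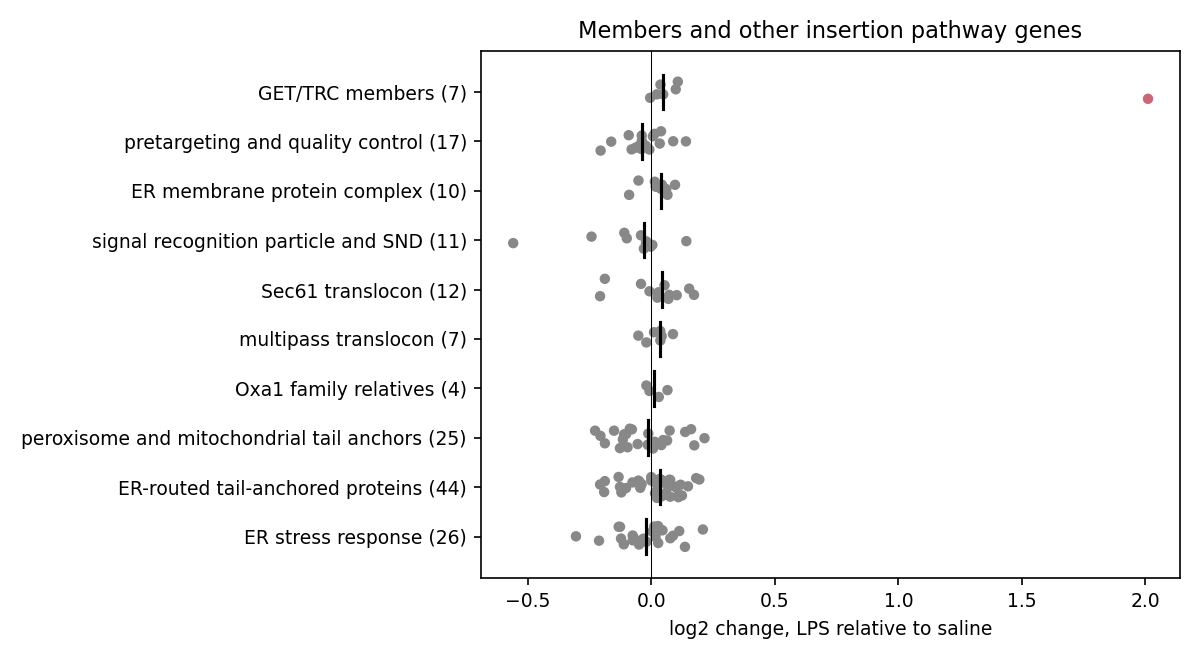
Log2 difference between LPS and saline mice (horizontal axis) for the 7 members and the genes of 9 further lists, 1 point per gene, with the list median as a bar and Wrb in red. Wrb is at 2.01, and the lists lie between -0.56 and 0.22.

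The genes around Wrb on chromosome 16 were read next. Of 24 annotated genes that reach into the 500 kb on each side, 7 were tested, all of them coding. None of the 7 was called by edgeR, DESeq2 or limma-voom (backgrounds 0.288%, 0.982% and 0.239% of all genes). By edgeR, 0 had an unadjusted p under 0.05, beside 7.17% of all genes. Groups overlapped in each, where 13.7% of all genes had groups that did not overlap. With 7 genes, 0 is near these shares. Hmgn1, a nucleosome-binding protein gene 17.7 kb upstream, had 37.3, 40.9 and 36.2 CPM with saline and 40.6, 39.5 and 37.3 CPM with LPS (log2 0.04, SE 0.074). On the other side, B3galt5, a glycosyltransferase gene 77.9 kb downstream, had 18.9, 23.3 and 20.8 CPM with saline and 19.5, 19.9 and 19.8 CPM with LPS (log2 -0.09, SE 0.0931).

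For the other 5 neighbours, log2 differences were -0.03 for Brwd1 (SE 0.0584), 0.11 for Psmg1 (SE 0.146), 0.06 for Ets2 (SE 0.0713), -0.0070 for Pcp4 (SE 0.139) and -0.04 for Dscam (SE 0.0606). The 7 neighbours thus ranged from -0.09 to 0.11. The nearest annotated genes downstream of Wrb, Lca5l and Sh3bgr, were not analysed here.

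**Figure D5:**
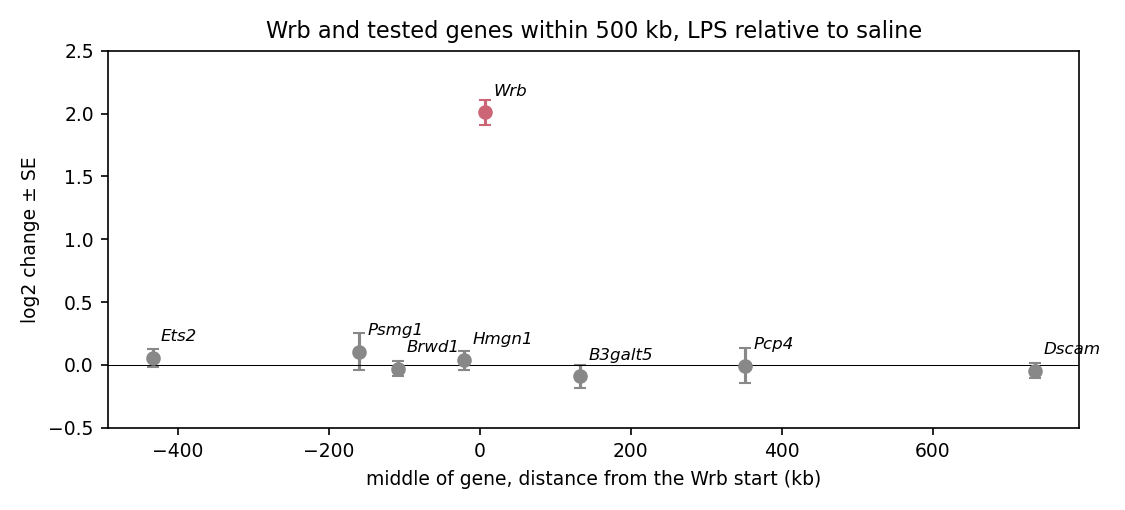
Log2 difference between LPS and saline mice with its SE (vertical axis) for Wrb and the 7 tested genes within 500 kb, placed by the distance of the middle of each gene from the Wrb start. Wrb is at 2.01 and the neighbours lie between -0.09 and 0.11.

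Genes with the pattern most like that of Wrb were ranked by Pearson's r of log2 CPM over the 6 libraries, among 13130 named genes. The libraries fall into 2 groups for Wrb, so r mainly reflects genes that separate the same groups, and it is given as a description. The highest values belonged to Hmga1 (r = 0.989), Zfand2a (0.988), Smim3 (0.983), Lsm11 (0.980) and Dnah6 (0.980). Their log2 differences were 1.04 (SE 0.0772), 1.34 (SE 0.0777), 0.39 (SE 0.113), 0.40 (SE 0.0741) and 2.40 (SE 0.286). Smim3 (edgeR adjusted p = 0.416) and Lsm11 (edgeR adjusted p = 0.0832) were not called, unlike Hmga1, Zfand2a and Dnah6. The most opposite were Kdm2a (r = -0.999, log2 -0.90), Hspa1b (-0.994, log2 -0.75) and Pheta1 (-0.994, log2 -2.57). Dnah6 averaged 0.527 CPM with saline and 2.78 CPM with LPS, so only its LPS level carried it past the limit of 1 CPM on average. Hmga1 shares 102 exon bases with another tested gene, AI413582, and Dnah6 shares 167 with Gm20560, which was not analysed here. Hspa1b has a near-identical copy in Hspa1a, so reads of Hmga1, Dnah6 and Hspa1b are uncertain. No member of the insertion pathway was among the genes most like or most opposite to Wrb. The other 6 members had r from -0.0841 (Asna1) to 0.697 (Ubl4a).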

How the data were processed

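A table deposited by the authors held a raw read count and an FPKM value for each gene in each library. TopHat2 2.1, DESeq 1.10.1 and GRCm38 are named, per the submitters' processing notes, without roles. How reads were counted, with which annotation, and how FPKM were computed is not given in the sources used here. Counts were tested with edgeR 4.0.16 in R 4.3.3 (robust quasi-likelihood test, TMM factors, treatment as the only term, all 6 libraries), with two-sided p adjusted by Benjamini-Hochberg over all 14250 rows and a threshold of 0.05. The filter filterByExpr removed 0 rows. P-values set the group difference against the spread between mice within groups, 3 per group, estimated in part from all genes. CPM used TMM factors, and log2 CPM a prior count of 2. Counts per FPKM were divided by each library's median over genes. Positions came from GENCODE M21, and promoters from RefSeq on GRCm38.p6. Caml had no RefSeq promoter entry.

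Members, lists and tests were chosen with earlier results of these data known. Named genes were the members, the 2 list genes with the smallest p per list and any called. The tested genes within 500 kb of Wrb were also named. So were the 5 most and 3 least alike in Pearson's r with Wrb, among named genes averaging at least 1 CPM over all libraries. Outside this rule, Srp54a, Srp54b, Tmco1, Cox18, Tmem208, Pex19, Pex3, Vamp2, Otof, Hspa5 and Ddit3 were named after their values were seen. The result of 1 list gene that this rule names is not reported here. Alternatives were the replicate number as a block, each library left out, RLE factors, DESeq2 1.42.0, limma-voom (limma 3.58.1), limma on log2(FPKM + 1), no filter and a mean of at least 50 counts. On simulated counts of 14250 genes for this comparison, edgeR found 37 of 67 planted changes of 1.5-fold, 55 of 67 of 2-fold and 65 of 66 of 4-fold, with 13 false calls. No libraries were near-duplicates (chi-square per degree of freedom at least 32.1).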

Additional observations from a re-analysis of the deposited data

How the results depend on the processing

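The log2 difference of Wrb was 1.61 with limma on log2(FPKM + 1), where the pseudocount and the FPKM scale both lower it, and 1.93 to 2.08 when 1 library was left out. Counts over all genes were 14 higher and 27 lower. They became 60 and 80 with DESeq2, and 8 higher with limma on log2(FPKM + 1); the cause was not tested. Without 1 library at a time, 14 to 20 were higher and 22 to 35 lower. The 152 list genes and the 7 neighbours of Wrb held 0 called genes in each of the 13 alternatives. The filter removed 0 rows, so the alternative without it repeats the main fit. With the replicate number as a block, the log2 difference of Wrb was 2.01 and 10 genes were higher and 21 lower. Same-numbered saline and LPS libraries did not deviate together (correlations -0.0266, 0.0252 and 0.0421). The labels do not say that equal numbers pair mice, and these correlations cannot decide it. Among the other members, Caml, Asna1 and Get4 changed sign in 2, 2 and 3 of the 13 alternatives, each staying within the spread between replicates, and Bag6, Ubl4a and Sgta were positive in all 13. With 3 mice per group, small differences in the partner genes could be missed. The simulated 1.5-fold changes, of which 37 of 67 were recovered, were planted in random genes above 1 CPM. That rate is therefore not specific to the partners.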
